A study of Mus musculus with 42 samples.

Results

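The 10 genes described here carry glucose into the cell, run glycolysis and export lactate, and they were chosen by name from the 21674 named genes of the count table: Slc2a1, Hk2, Pfkfb3, Pfkp, Aldoa, Tpi1, Pgk1, Eno1, Ldha and Slc16a3. All 10 had counts in the table. They were followed through 42 libraries of a mouse study of arterial flow, in which partial ligation of the left carotid artery lowered its flow, the opposite carotid artery carried high flow, and RNA of the intima, the inner lining of the vessel, was flushed out and pooled over several arteries. The study compared flow conditions with and without recruited blood cells and with and without the splicing factor Rbfox2.

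The untreated set held 3 pools of low-flow intima, 3 of high-flow intima and 3 of sham-operated intima, taken 48 hr after surgery from male C57BL/6J mice a few weeks old. The treated set held 2 libraries for each of 7 groups at 48 hr. Low-flow intima came from mice that received anti-GPIba (to deplete platelets), anti-Gr1 (neutrophils) or IgG as their control, and from mice that received clodronate liposomes (macrophages) or PBS liposomes as theirs. High-flow intima came from IgG and PBS liposome mice. The 7 day set held endothelial Rbfox2 knockouts (EC-KO: Rbfox2 lox/lox with the reporter Rosa26-mTmG and Cdh5(PAC)-CreERT2, a Cre under an endothelial promoter that tamoxifen activates) and littermate controls that had the floxed alleles without Cre, of both sexes and a few months old, with 3 libraries of each genotype at low flow and 2 at high flow. The remaining libraries stood alone: a low-flow pool after PBS liposomes and a low-flow pool after clodronate read at 100 bp, primary aortic endothelial cells sorted for eGFP, primary Rbfox2 EC-KO and control cells, and an SV40-immortalized aortic endothelial line left untreated or given 10% plasma, platelets with monocytes/macrophages, or all 3 for 48 hr. Pools of arteries, a single immortalized line and flushed intima, which can carry adhering blood cells, limit these groups as models of the endothelium.

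Glycolysis turns glucose into pyruvate in the cytosol. Its preparatory steps take up the sugar, phosphorylate it and cleave it into triose phosphates, and its payoff steps, which follow from glyceraldehyde 3-phosphate, return ATP. When lactate dehydrogenase reduces the pyruvate, NAD+ is restored so that the pathway can go on, and monocarboxylate transporters carry the lactate out with a proton. Endothelial cells are known to lean on glycolysis even where oxygen is plentiful, and activated macrophages, neutrophils and dividing cells are known to raise it. Several of these genes are classic targets of the hypoxia-inducible factors, which bind a short DNA element with the core ACGTG or GCGTG.

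The bases around the start site are shown for 5 members. Pgk1, Eno1 and Ldha were higher in every untreated low-flow pool than in any high-flow pool, Slc2a1 is the glucose carrier, and Pfkfb3 moved the other way. Tpi1, which also rose with low flow in several comparisons, is not shown. RefSeq sequences of GRCm38.p6 matched all 10 members, and each run holds 250 bases before to 50 bases after the first listed start, on the strand of the gene, with each match of ACGTG or GCGTG in capitals. Both strands were searched, so a match on the other strand stands as its reverse complement, and overlapping matches were joined into 1 site, as in the palindrome CACGTG, which is also an E-box. Slc2a1 lies on the plus strand at chr4:119108495-119108794, Pfkfb3 on the minus strand at chr2:11553880-11554179, Pgk1 on the plus strand at chrX:106186850-106187149, Eno1 on the plus strand at chr4:150236458-150236757, and Ldha on the plus strand at chr7:46845554-46845853.
Slc2a1: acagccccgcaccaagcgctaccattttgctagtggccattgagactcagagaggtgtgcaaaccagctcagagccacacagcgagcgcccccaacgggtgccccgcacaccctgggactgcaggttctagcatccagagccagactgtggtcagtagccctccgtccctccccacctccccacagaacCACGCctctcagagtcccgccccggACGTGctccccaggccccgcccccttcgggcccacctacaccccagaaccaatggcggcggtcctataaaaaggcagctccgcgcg
Pfkfb3: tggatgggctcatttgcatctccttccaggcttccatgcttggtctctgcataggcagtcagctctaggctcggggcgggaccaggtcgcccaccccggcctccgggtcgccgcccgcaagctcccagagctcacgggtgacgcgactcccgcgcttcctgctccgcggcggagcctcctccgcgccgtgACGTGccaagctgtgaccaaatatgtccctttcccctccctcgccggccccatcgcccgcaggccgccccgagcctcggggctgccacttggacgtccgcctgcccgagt
Pgk1: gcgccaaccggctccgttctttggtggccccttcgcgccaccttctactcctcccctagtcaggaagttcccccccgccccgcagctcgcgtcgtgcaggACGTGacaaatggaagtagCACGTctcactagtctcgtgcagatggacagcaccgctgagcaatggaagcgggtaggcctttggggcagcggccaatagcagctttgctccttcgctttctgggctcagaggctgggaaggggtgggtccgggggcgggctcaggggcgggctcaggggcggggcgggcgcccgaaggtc
Eno1: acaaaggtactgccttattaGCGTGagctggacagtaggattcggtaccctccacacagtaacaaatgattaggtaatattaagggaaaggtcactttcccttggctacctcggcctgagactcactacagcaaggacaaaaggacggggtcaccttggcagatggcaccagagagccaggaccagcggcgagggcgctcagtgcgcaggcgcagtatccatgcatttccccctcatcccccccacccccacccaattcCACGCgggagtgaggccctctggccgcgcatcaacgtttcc
Ldha: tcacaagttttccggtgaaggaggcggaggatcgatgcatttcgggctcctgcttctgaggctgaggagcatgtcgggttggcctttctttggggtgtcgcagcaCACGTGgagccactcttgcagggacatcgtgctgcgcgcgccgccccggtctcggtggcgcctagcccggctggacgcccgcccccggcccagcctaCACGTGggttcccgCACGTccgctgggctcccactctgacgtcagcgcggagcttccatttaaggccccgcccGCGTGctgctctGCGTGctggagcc

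These letters occurred at 5 sites for Ldha, 4 for Pfkp, 2 each for Slc2a1, Hk2, Pgk1, Eno1 and Slc16a3, 1 for Pfkfb3, and 0 for Aldoa and Tpi1, counted in the first listed window of each gene. Other listed starts gave other counts: 3 in the second window of Pfkfb3, 1 in each of the other windows of Aldoa, and 2 in the second window of Ldha. In first windows at least 1 site stood in 8 of the 10 members, against 43.8% of the first windows of 27025 genes, and at least 2 sites stood in 7 members, against 17.4%. Several members are known targets of the factors that bind these letters, and the windows of all genes were not matched for base content. The higher share among the members was therefore not tested. A match of these letters is a description of the window, and the absence of one says only that the letters are not in it.

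Loci are given from the GENCODE annotation of mm9, which the counts are not stated to rest on, and the overlaps named next hold for that annotation. Slc2a1 occupies chr4:118781316-118809935, Hk2 chr6:82675019-82724448, Pfkfb3 chr2:11393057-11423728, Pfkp chr13:6579014-6648023 and Aldoa chr7:133938748-133944265. Tpi1 occupies chr6:124760604-124764314, Pgk1 chrX:103382439-103399038, Eno1 chr4:149610830-149622988, Ldha chr7:54096845-54110997 and Slc16a3 chr11:120809794-120822182. The counts cover whole transcripts, and the counting is not stated to use the strand, so reads where Slc2a1 and Hk2 overlap noncoding genes and where Pfkp overlaps Pitrm1, Tpi1 overlaps Spsb2 and Slc16a3 overlaps Csnk1d on the opposite strand may not be told apart. Stretches of at least 150 bases at 95% identity or more stood elsewhere in the genome in 1 place for Tpi1, 4 for Pgk1, 4 for Eno1 and 3 for Ldha, so counts of these 4 genes are uncertain to the extent that reads were shared with such copies. The other 6 members had 0 such places.

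Library totals ran from 4064477 to 6794904 counts in the untreated set, 12286104 to 19035957 in the treated set, 10318685 to 18633538 at 7 days and 4989843 to 16394043 in the cultures. Low-flow pools a and b of the untreated set stood apart: 50 genes held 40.3% and 41.2% of their counts, of which Actb alone held 10.6% and 10.1%, while the same measure was 19.9% to 21.9% in the other 7 pools. Their scaling factors by the trimmed mean of M-values (TMM) were 0.569 and 0.549, against 1.12 to 1.27 in the others, so that FPKM, which scales a count by gene length and library size, differs there between library totals and TMM-adjusted totals, and both are given. With library totals in place of TMM, the median log2 fold-change of all genes fell from −0.07 to −0.69 between low and high flow, and from −0.04 to −0.71 between low flow and sham. The split of all genes called went from 2652 higher and 2543 lower to 1044 and 3084 against high flow, and from 2304 and 2195 to 642 and 2716 against sham. All 11 endothelial markers had counts in every artery group, where they held 0.487% to 1.85% of all counts. In bulk RNA, fewer cells of a type and less RNA per cell cannot be told apart.

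The later steps of the pathway were higher after 48 hr of low flow in untreated mice. Pgk1, Eno1 and Ldha were higher in every low-flow pool than in any high-flow pool on either scale, and Slc2a1, Tpi1 and Slc16a3 rose with TMM scaling, while with library totals their calls were lost. Pfkfb3, whose enzyme makes the strongest activator of phosphofructokinase, fell. By the quasi-likelihood test of edgeR with Benjamini-Hochberg adjustment, 6 of the 10 members were higher at low flow, where 23.6% of 11236 genes were, and 1 was lower, where 22.6% of genes were. The median log2 fold-change was 0.84 over the members and −0.07 over all genes tested.

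Among the genes of uptake and priming, Slc2a1, which encodes the glucose transporter GLUT1, had 24.1, 35.6 and 28.7 FPKM by TMM-adjusted totals in low-flow pools a, b and c, and 17.6, 14.5 and 17.3 in high-flow pools. The groups did not overlap on that scale, but with library totals pool a had 13.7 FPKM and lay under all 3 high-flow pools (17.2 to 20.5). Slc2a1 rose by a log2 of 0.83 ± 0.19 (SE, adjusted p = 0.00528), and with library totals the value was 0.19 (adjusted p = 0.739). Hk2, a hexokinase that traps glucose as its phosphate, was low throughout, with 0.963, 0.620 and 0.816 FPKM by TMM-adjusted totals at low flow and 0.275, 0.644 and 4.09 at high flow. Its groups overlapped, with the highest value in high-flow pool c, and the test gave a log2 of −1.03 ± 0.77 (SE, adjusted p = 0.291), or −1.69 with library totals (adjusted p = 0.0153). Pfkp, the platelet-type phosphofructokinase of the committed step, had 13.6, 17.4 and 22.7 FPKM against 13.7, 13.8 and 15.3, with overlapping groups and a log2 of 0.32 ± 0.20 (SE, adjusted p = 0.216).

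Pfkfb3 went the other way, with 4.98, 4.20 and 7.08 FPKM by TMM-adjusted totals at low flow and 7.63, 9.32 and 10.2 at high flow. Every low-flow pool lay under every high-flow pool on both scales. Pfkfb3 fell by 0.73 ± 0.22 on the log2 scale (SE, adjusted p = 0.0201). The call was lost without low-flow pool a, low-flow pool b, high-flow pool b or high-flow pool c, with adjusted p-values of up to 0.0742. As a share of the 4 Pfkfb genes within a library, which no scaling can move, Pfkfb3 took 36.1%, 21.9% and 37.6% at low flow and 60.0%, 53.0% and 45.8% at high flow. The share also depends on the rest of the family, in which Pfkfb4 rose, so it does not by itself show a fall of Pfkfb3.

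In the middle of the pathway, Aldoa, the aldolase that cleaves the hexose, had 1886, 2315 and 863 FPKM by TMM-adjusted totals at low flow and 956, 834 and 993 at high flow. With library totals it had 1074, 1272 and 968 against 1066, 990 and 1177, so its groups overlapped on both scales, and the log2 of 0.86 ± 0.42 (SE) had an adjusted p of 0.12. Without low-flow pool c the adjusted p was 0.000434, and DESeq2 also called Aldoa. Tpi1, the isomerase that interconverts the triose phosphates from that cleavage, had 136, 140 and 104 FPKM by TMM-adjusted totals against 86.1, 73.1 and 82.6, and rose by 0.64 ± 0.20 (SE, adjusted p = 0.0238). With library totals Tpi1 overlapped, at 77.6, 76.8 and 117 FPKM against 96.0, 86.7 and 98.0, and the sign turned, with a log2 fold-change of −0.05 (adjusted p = 0.921). The call for Tpi1 was also lost without low-flow pool a or b or high-flow pool b or c, with adjusted p-values of up to 0.113.

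The payoff enzymes gave the clearest values. Pgk1, the kinase that makes the first ATP of the payoff phase, had 303, 296 and 318 FPKM by library totals at low flow and 95.9, 107 and 106 at high flow. By TMM-adjusted totals it had 532, 538 and 283 against 86.0, 90.0 and 89.7, so every low-flow pool stood well above all high-flow pools on both scales. Pgk1 rose by 2.34 ± 0.31 (SE, adjusted p = 0.000149), and with library totals by 1.57. Eno1, the main enolase, had 775, 1303 and 713 FPKM by library totals at low flow against 280, 256 and 381, and 1362, 2372 and 636 against 251, 216 and 321 by TMM-adjusted totals. Again no pools overlapped, and Eno1 rose by 2.46 ± 0.49 (SE, adjusted p = 0.00217), and by 1.60 with library totals. Both calls held without each pool in turn. With low-flow pool c alone the log2 values were 1.69 for Pgk1 and 1.29 for Eno1, in a fit whose spread comes from the high-flow pools only, since a single library has none of its own, and where 2731 of 12170 genes passed.

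At the lactate end, Ldha, the muscle-type subunit of lactate dehydrogenase that favours lactate production, had 862, 1028 and 705 FPKM by library totals at low flow and 431, 425 and 544 at high flow. By TMM-adjusted totals it had 1514, 1871 and 629 against 386, 358 and 459, again without overlap. Ldha rose by 1.73 ± 0.43 (SE, adjusted p = 0.00781) and by 0.89 with library totals, while with low-flow pool c alone it had 0.66 (adjusted p = 0.0737). Slc16a3, which encodes the lactate exporter MCT4, had 1.78, 8.84 and 5.87 FPKM by TMM-adjusted totals against 2.36, 1.49 and 1.36, so low-flow pool a lay among the high-flow pools. Slc16a3 rose by 1.63 ± 0.49 (SE, adjusted p = 0.019), but the call was lost with library totals (log2 of 1.04, adjusted p = 0.139) and without low-flow pool b, high-flow pool b or high-flow pool c, with adjusted p-values of up to 0.0846.

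**Figure D1:**
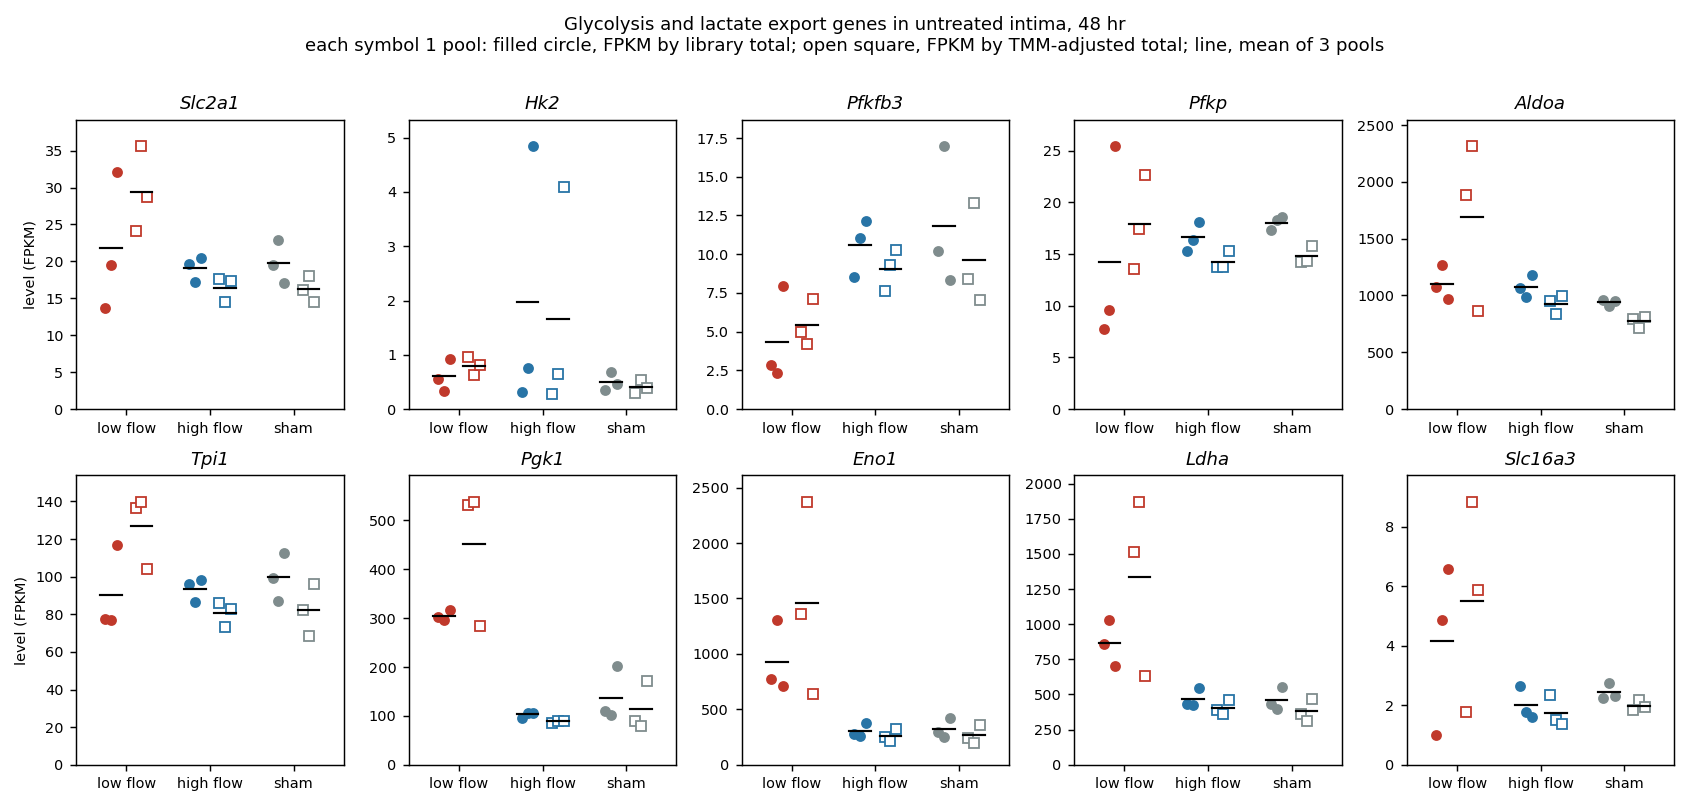
Level of each member in FPKM (vertical axes, from 0) in the 3 untreated groups at 48 hr, where filled circles are pools by library totals, open squares the same pools by TMM-adjusted totals and lines the means of 3 pools. Pgk1, Eno1 and Ldha at low flow sit above all high-flow and sham pools on both scales (Pgk1 296 to 318 against 95.9 to 202 FPKM by library totals), while Slc2a1 and Tpi1 separate on TMM-adjusted totals and overlap on library totals.

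The same pattern was seen against sham arteries, which share the low-flow pools with the comparison above. Of the 10 members, 6 were higher at low flow than in sham, where 20.6% of 11164 genes were, and 1 was lower, where 19.7% of genes were, and the median log2 fold-change was 1.02 over the members and −0.04 over all genes. Pgk1 had 109, 102 and 202 FPKM by library totals in sham pools, all under the low-flow pools, and the log2 fold-change was 1.95 ± 0.39 (SE, adjusted p = 0.0063). Eno1 had 292, 253 and 417 FPKM in sham and a log2 of 2.43 (adjusted p = 0.00877), and Ldha 435, 396 and 554 FPKM and a log2 of 1.78 (adjusted p = 0.0156). These 3 genes did not overlap with low flow on either scale. Slc2a1 (log2 of 0.82, adjusted p = 0.0123), Tpi1 (0.59, adjusted p = 0.0494) and Slc16a3 (1.38, adjusted p = 0.0481) rose with TMM scaling, and their calls were lost with library totals, where Tpi1 turned to −0.15. Pfkfb3 had 10.2, 17.0 and 8.31 FPKM by library totals in sham against 2.83, 2.31 and 7.94 at low flow, and fell by 0.85 on the log2 scale (adjusted p = 0.0442). On TMM-adjusted totals its highest low-flow pool (7.08 FPKM) just overlapped the lowest sham pool (7.07), and DESeq2 did not call it (adjusted p = 0.0608). Aldoa (log2 of 1.1, adjusted p = 0.0707), Hk2 (0.95, adjusted p = 0.0569) and Pfkp (0.24, adjusted p = 0.367) did not pass, although DESeq2 called Aldoa. Macrophage markers rose here too (12 of 14), and cycling markers (10 of 12), and their part was not tested.

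Fewer of these calls against sham held when a pool was left out. Without sham pool a, 2 of the members passed (Pgk1 and Eno1), as did 2513 of 11477 genes, and Ldha lost its call without low-flow pool a, low-flow pool b, sham pool a or sham pool b, with adjusted p-values of up to 0.0736. Slc2a1 lost its call without sham pool a (adjusted p = 0.0528). Pfkfb3 and Tpi1 lost theirs without low-flow pool a or b or sham pool a or b, with adjusted p-values of up to 0.149 and 0.154, and Slc16a3 lost its call without any pool but low-flow pool a, with values of up to 0.153. With low-flow pool c alone 0 members and 0 of 12187 genes passed, and the log2 values were 1.28 for Pgk1, 1.24 for Eno1 and 0.70 for Ldha.

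High-flow pools were not told apart from sham pools in any member. Here edgeR called 0 members and 0 of 11030 genes (0.0%). At an unadjusted p under 0.05 there were 868 genes, and 101 passed with DESeq2. The log2 values of the members ran from −0.38 for Pgk1 to 2.00 ± 0.85 (SE) for Hk2, which was the 1 member with an unadjusted p under 0.05, and DESeq2 called 0 of them. The other 8 lay between −0.23 for Slc16a3 and 0.25 for Aldoa, and the median of all 10 was −0.04. Sham pool c stood nearer to low flow than its fellows for Pgk1, Eno1 and Ldha.

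Ratios within a library do not depend on scaling, and they were looked at after the values above were seen, so they are a description without a test. The summed FPKM of Pgk1, Eno1 and Ldha over that of Aldoa and Tpi1 was 1.69, 1.95 and 1.60 in low-flow pools, 0.694, 0.732 and 0.809 in high-flow pools, and 0.788, 0.754 and 1.1 in sham pools. The low-flow pools, a and b included, lay above all others. Of the 2 lactate dehydrogenase subunits, Ldha made up 98.9%, 98.8% and 96.4% at low flow, and 94.6%, 90.4% and 78.3% at high flow, against Ldhb, the heart-type subunit. Ldhb itself fell by 1.56 on the log2 scale between low and high flow (adjusted p = 0.0305).

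Other genes of glucose metabolism, from lists of the remaining glycolytic steps, the Pfkfb family, pyruvate fate, the pentose phosphate pathway, gluconeogenesis and glycogen, were counted in the same way. Of 49 tested between low and high flow, 16 rose and 7 fell, where 23.6% and 22.6% of all genes did, and against sham 22 of 48 rose and 3 fell, where 20.6% and 19.7% of all genes did. Gapdh, the step just before Pgk1, rose by 2.83 ± 0.54 (SE, adjusted p = 0.00166), and Pkm2, the pyruvate kinase entry of the table, by 2.65 (adjusted p = 0.00267). Pgam1, the mutase between them, rose by 0.88 (adjusted p = 0.00486). The isoforms at the member steps of uptake and priming rose too: Slc2a3 (GLUT3) by 1.83, Hk1 by 0.76 and Pfkl, the liver-type phosphofructokinase, by 0.60. Within the Pfkfb family Pfkfb4 rose by 3.72 (adjusted p = 2.73e-05) and Pfkfb2 fell by 1.22 (adjusted p = 0.00164), so that Pfkfb4 moved against Pfkfb3. Of the kinases that shut off pyruvate dehydrogenase, Pdk3 rose by 0.90 and Pdk2 fell by 1.5.

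Markers of other cells moved with the members between these groups. The 14 macrophage markers held 0.233% to 0.344% of counts at low flow, 0.00716% to 0.018% at high flow and 0.0224% to 0.0685% in sham, and 13 of 14 rose between low and high flow. The 9 neutrophil markers in the table held 0.0247% to 0.0487% at low flow and 0.000749% to 0.0024% at high flow, with 6 of the 6 tested higher. All 12 cycling markers rose, from 0.0031% to 0.00662% of counts at high flow to 0.0565% to 0.123% at low flow, and the 8 smooth muscle markers held 0.233% to 0.432% against 0.0557% to 0.0654%. The 11 endothelial markers held 0.487% to 0.628% at low flow and 1.04% to 1.2% at high flow. No macrophage or neutrophil marker counted here was at 0 in the whole high-flow group, and their part in the change of the members was not tested.

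The flow comparison was made again in the treated mice, whose high-flow libraries came from another sequencing run than the low-flow libraries, so that flow and run cannot be told apart there. Under control IgG, 4 members were higher at low flow, where 22.8% of 13401 genes were, and 1 was lower, where 17.7% of genes were. Pgk1 had 208 and 246 FPKM by library totals at low flow and 32.6 and 45.8 at high flow, and rose by 2.44 ± 0.55 (SE, adjusted p = 0.00601). Eno1 had 575 and 818 FPKM against 171 to 200, with a log2 of 1.83 (adjusted p = 0.004), and Ldha 812 and 963 FPKM against 292 and 304, with a log2 of 1.49 (adjusted p = 0.00568). Tpi1 rose as well, from 102 and 89.2 FPKM to 188 and 215 (log2 of 0.99, adjusted p = 0.00738). In these 4 genes both low-flow libraries stood above both high-flow libraries. Pfkfb3 had 13.4 and 10.1 FPKM at low flow and 32.6 and 17.8 at high flow, and fell by 1.18 on the log2 scale (adjusted p = 0.0262).

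The other 5 members did not pass under IgG. Slc2a1 had 50.7 and 45.4 FPKM against 27.2 and 29.1, which did not overlap (log2 of 0.68, adjusted p = 0.0823), and Slc16a3 had 12.3 and 5.73 against 5.96 and 5, which did (0.63, adjusted p = 0.371). Aldoa had a log2 of 0.19, Pfkp of 0.40 and Hk2 of 1.02. Leaving out 1 of the 4 libraries leaves a lone library in its group. Tpi1 lost its call without IgG low-flow library b, Pgk1 without IgG high-flow library a, and Pfkfb3 without IgG low-flow library a or b or high-flow library a. The counts over all genes in those fits are not given, so the losses are not read as particular to the members. The median log2 fold-change was 0.84 over the members and 0.07 over all genes.

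Under PBS liposomes, 6 members were higher at low flow, where 19.6% of genes were, and 0 were lower, where 15.5% of genes were. Pgk1 had 288 and 424 FPKM at low flow and 53.2 and 89.9 at high flow (log2 of 2.43, adjusted p = 0.00651), Eno1 708 and 964 against 267 and 388 (1.46, adjusted p = 0.0113), and Ldha 1170 and 1212 against 393 and 506 (1.52, adjusted p = 0.00559). Tpi1 rose by 1.02 (adjusted p = 0.00684) and Slc2a1, with 50.7 and 50.9 FPKM against 19.9 and 23.3, by 1.35 ± 0.30 (SE, adjusted p = 0.006). Hk2 had 24 and 20 counts at low flow and 0 in both high-flow libraries, which makes it at least 5.93-fold higher against a floor of 3 counts per library (0.04 FPKM, counting error only). Pfkfb3 had 12.9 and 7.09 FPKM against 21.3 and 17.1, lower without overlap, at an adjusted p of 0.101. Aldoa (log2 of 0.39, adjusted p = 0.119), Pfkp (−0.18, adjusted p = 0.544) and Slc16a3 (0.64, adjusted p = 0.386), whose groups overlapped, did not pass, and the median over the members was 1.18 against 0.06 over all genes, the same with Hk2 at its bound. All 6 calls were lost without PBS high-flow library a, with adjusted p-values of up to 0.111 in a fit where 1482 of 13807 genes passed, and the calls for Tpi1 (0.0755) and Eno1 (0.0762) also without PBS low-flow library b.

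**Figure D2:**
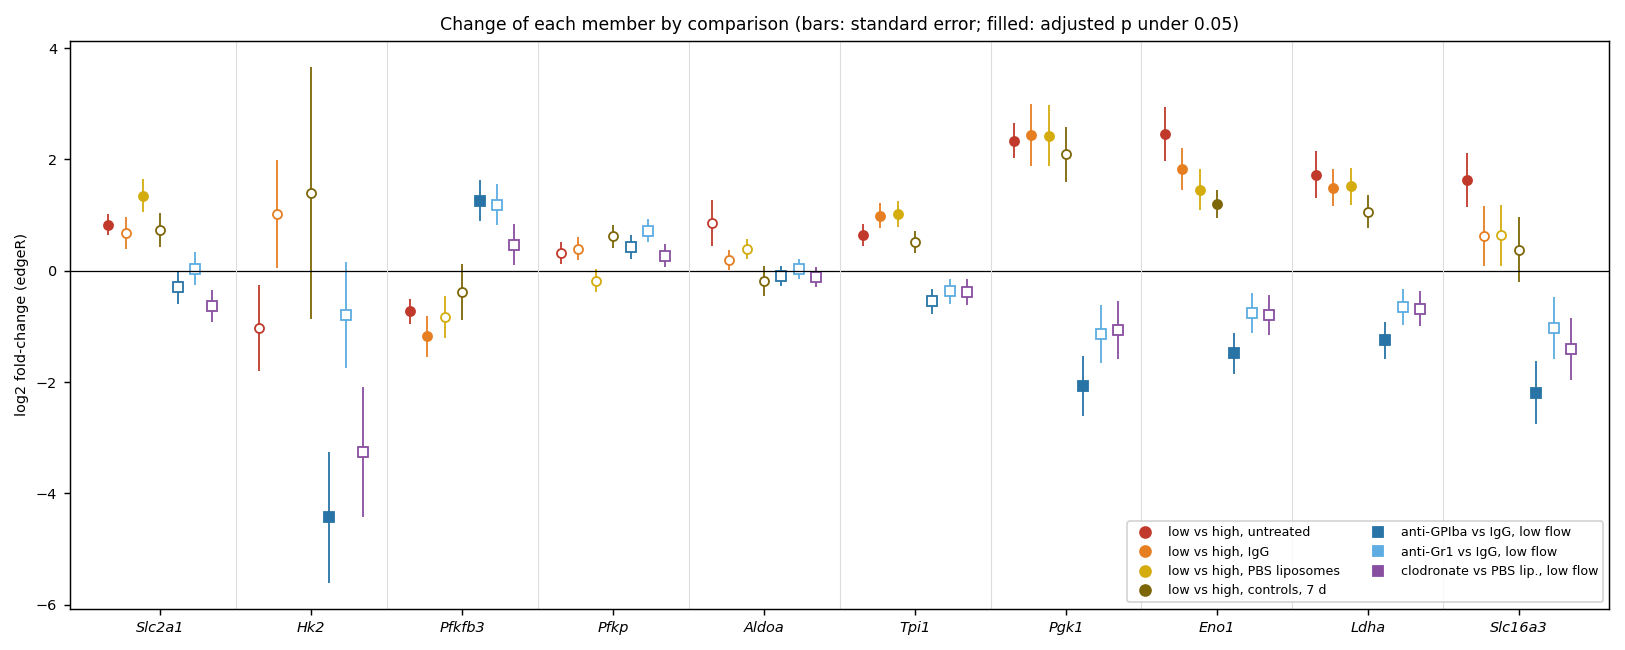
Log2 fold-change by edgeR (vertical axis) of each member in 4 comparisons of low with high flow (circles) and 3 of depleted with control mice at low flow (squares), with bars for the standard error and filled symbols for an adjusted p under 0.05, where Hk2 under PBS liposomes is not drawn because its high-flow libraries hold 0 counts. Pgk1, Eno1 and Ldha sit above 0 in all 4 flow comparisons (1.06 to 2.46) and under 0 in all 3 depletions (−0.65 to −2.07), and Pfkfb3 does the reverse.

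Depletion of platelets with anti-GPIba changed members at low flow against IgG, and the change ran against the flow response. Pgk1, Eno1, Ldha, Slc16a3 and Hk2 fell and Pfkfb3 rose, so that 5 members were lower, where 10.5% of genes were, and 1 was higher, where 6.05% were. The median over the members was −0.90, against −0.04 over all genes. These libraries share their run with the IgG libraries of low flow, and the IgG libraries also stand in the flow comparison above, so that the directions of these comparisons are not independent of each other.

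Pgk1 had 60.8 and 49.9 FPKM by library totals after anti-GPIba, against 208 and 246 after IgG, and fell by 2.07 ± 0.54 on the log2 scale (SE, adjusted p = 0.0334). Eno1 had 267 and 244 FPKM against 575 and 818, and fell by 1.48 ± 0.37 (SE, adjusted p = 0.031). Ldha had 350 and 414 FPKM against 812 and 963, and fell by 1.25 ± 0.33 (SE, adjusted p = 0.0336). Slc16a3 had 2.49 and 1.53 FPKM against 12.3 and 5.73, and fell by 2.19 ± 0.57 (SE, adjusted p = 0.0333). Both anti-GPIba libraries lay under both IgG libraries in each of these genes. Hk2 had 3 and 1 counts after anti-GPIba and 51 and 38 after IgG, a ratio of summed counts per total that was 22.4 times lower, with a 95% exact counting interval of 8.44 to 84.0 (adjusted p = 0.0345 by edgeR). Pfkfb3 had 30.1 and 27.3 FPKM against 13.4 and 10.1, and rose by 1.26 ± 0.37 (SE, adjusted p = 0.0423).

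The remaining members did not pass the test in this comparison. Tpi1 had 135 and 146 FPKM against 188 and 215, lower without overlap (log2 of −0.55, adjusted p = 0.109). Slc2a1 had 41.9 and 37.9 FPKM against 50.7 and 45.4 (−0.30, adjusted p = 0.481), Aldoa 481 and 527 against 514 and 545 (−0.10, adjusted p = 0.712), and Pfkp 27.0 and 38.4 against 25.2 and 22.5 (0.43, adjusted p = 0.167). All 6 calls were lost when any 1 of the 4 libraries was left out, IgG a, IgG b, anti-GPIba a or anti-GPIba b, with adjusted p-values of 0.0517 to 0.267, and with a lone library assumed to vary like the other groups. The calls over all genes went from 2216 to 83, 89, 15 and 1 in the same fits, and the log2 fold-change of Pgk1 stayed between −2.22 and −1.92, that of Eno1 between −1.72 and −1.18 and that of Ldha between −1.38 and −1.1. The 6 calls were kept with DESeq2, 4 other choices of scaling or filter, the replicate block and a fit of the 2 groups alone.

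In the same comparison, 9 of 14 macrophage markers fell, from 0.236% to 0.26% of counts after IgG to 0.0216% to 0.0296% after anti-GPIba, and 5 of the 9 neutrophil markers fell, from 0.0117% to 0.034% to 0.000787% to 0.00132%. Cycling markers went from 0.0835% to 0.143% of counts to 0.00205% to 0.00261%, with 4 of 12 lower, and the endothelial markers held 0.551% to 0.674% after IgG and 1.18% in both anti-GPIba libraries. Their part in the change of the members was not tested. Among the other genes of glucose metabolism, 2 of 55 rose and 11 fell, where 6.05% and 10.5% of all genes did: Gapdh fell by 1.47 (adjusted p = 0.0272), Pgam1 by 1.22, Pfkfb4 by 2.46 and Pdk3 by 1.41, Hk3, a hexokinase known from myeloid cells, fell by 3.69, and Pdk4 rose by 1.92 and Pdk2 by 1.61.

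Set against high-flow IgG libraries of another run, the low-flow anti-GPIba libraries differed in 1 member, Pfkp, which was higher by 0.82 (adjusted p = 0.0411), where 3.29% of genes were higher and 4.41% lower (441 and 591 genes, or 601 and 497 with library totals). Pfkp had 27.0 and 38.4 FPKM against 17.0 and 17.2, and the call was lost without any 1 of the 4 libraries, with adjusted p-values of up to 0.326, in fits where 57, 1, 7 and 528 genes passed against 1032 with all libraries. Pgk1 had a log2 of 0.38 ± 0.52, Eno1 of 0.35 ± 0.36 and Ldha of 0.24 ± 0.32 (SE, adjusted p = 0.576 to 0.685), and their FPKM by library totals lay a little above the high-flow values without overlap. Slc16a3 lay lower, at 2.49 and 1.53 FPKM against 5.96 and 5, without passing (−1.56, adjusted p = 0.104), although DESeq2 called it. Hk2 had a log2 of −3.41 (adjusted p = 0.0914), and the other 4 lay between 0.08 for Pfkfb3 and 0.44 for Tpi1.

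Anti-Gr1 gave values of the same sign in the payoff genes without a call. Neither a member nor any of 13401 genes passed against IgG with edgeR (0.0%), with 2 members and 2432 genes at an unadjusted p under 0.05. With DESeq2, 0 members and 142 genes passed. Pgk1 had 75.0 and 128 FPKM (log2 of −1.13 ± 0.53, adjusted p = 0.279), Eno1 400 and 414 (−0.76 ± 0.36, adjusted p = 0.29) and Ldha 484 and 634 (−0.65 ± 0.32, SE, adjusted p = 0.309), each under both IgG libraries. Pfkfb3 had 23.6 and 29.0 FPKM, above both IgG libraries (1.19 ± 0.37, adjusted p = 0.243), as did Pfkp, with 36.5 and 40.7 (0.72, adjusted p = 0.243). Slc16a3 had a log2 of −1.03, Hk2 of −0.79, Tpi1 of −0.37, and Slc2a1 and Aldoa of 0.04. The median over the members was −0.51, and macrophage markers held 0.13% to 0.136% of counts.

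Clodronate likewise gave 0 members against PBS liposomes with edgeR, with 3 members at an unadjusted p under 0.05 and 0 by DESeq2. Over all genes edgeR called 16 (0.119%). The 2 clodronate libraries differed from each other in the payoff genes: Pgk1 had 77.0 FPKM in library a and 286 in library b, Eno1 311 and 713, and Ldha 518 and 1065, against 288 and 424, 708 and 964, and 1170 and 1212 after PBS. Both libraries lay under both PBS libraries for Pgk1 and Ldha, library b only just for Pgk1, and for Eno1 library b overlapped with PBS on library totals. Both also lay under PBS for Slc16a3, at 2.05 and 3.39 FPKM against 4.56 and 8.88 (log2 of −1.40, adjusted p = 0.294), and for Slc2a1, at 28.3 and 41.9 against 50.7 and 50.9 (−0.63, adjusted p = 0.339). The log2 values of Tpi1, Aldoa, Pfkp and Pfkfb3 were −0.38, −0.11, 0.27 and 0.47. Macrophage markers held 0.0238% and 0.0242% of counts in the clodronate libraries, against 0.138% to 0.232% after PBS, and cycling markers held 0.00443% and 0.128%, against 0.0176% to 0.141%. Their part in the result was not tested. Without clodronate library b, Pgk1 (adjusted p = 0.0328), Eno1 (0.0358) and Ldha (0.0373) passed, and so did 937 of 13997 genes, 471 higher and 466 lower. Hk2 had 1 and 3 counts against 24 and 20, a ratio 9.34 times lower with an exact counting interval of 3.4 to 35.8, and its log2 of −3.25 had an adjusted p of 0.267. The median over the members was −0.66.

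**Figure D3:**
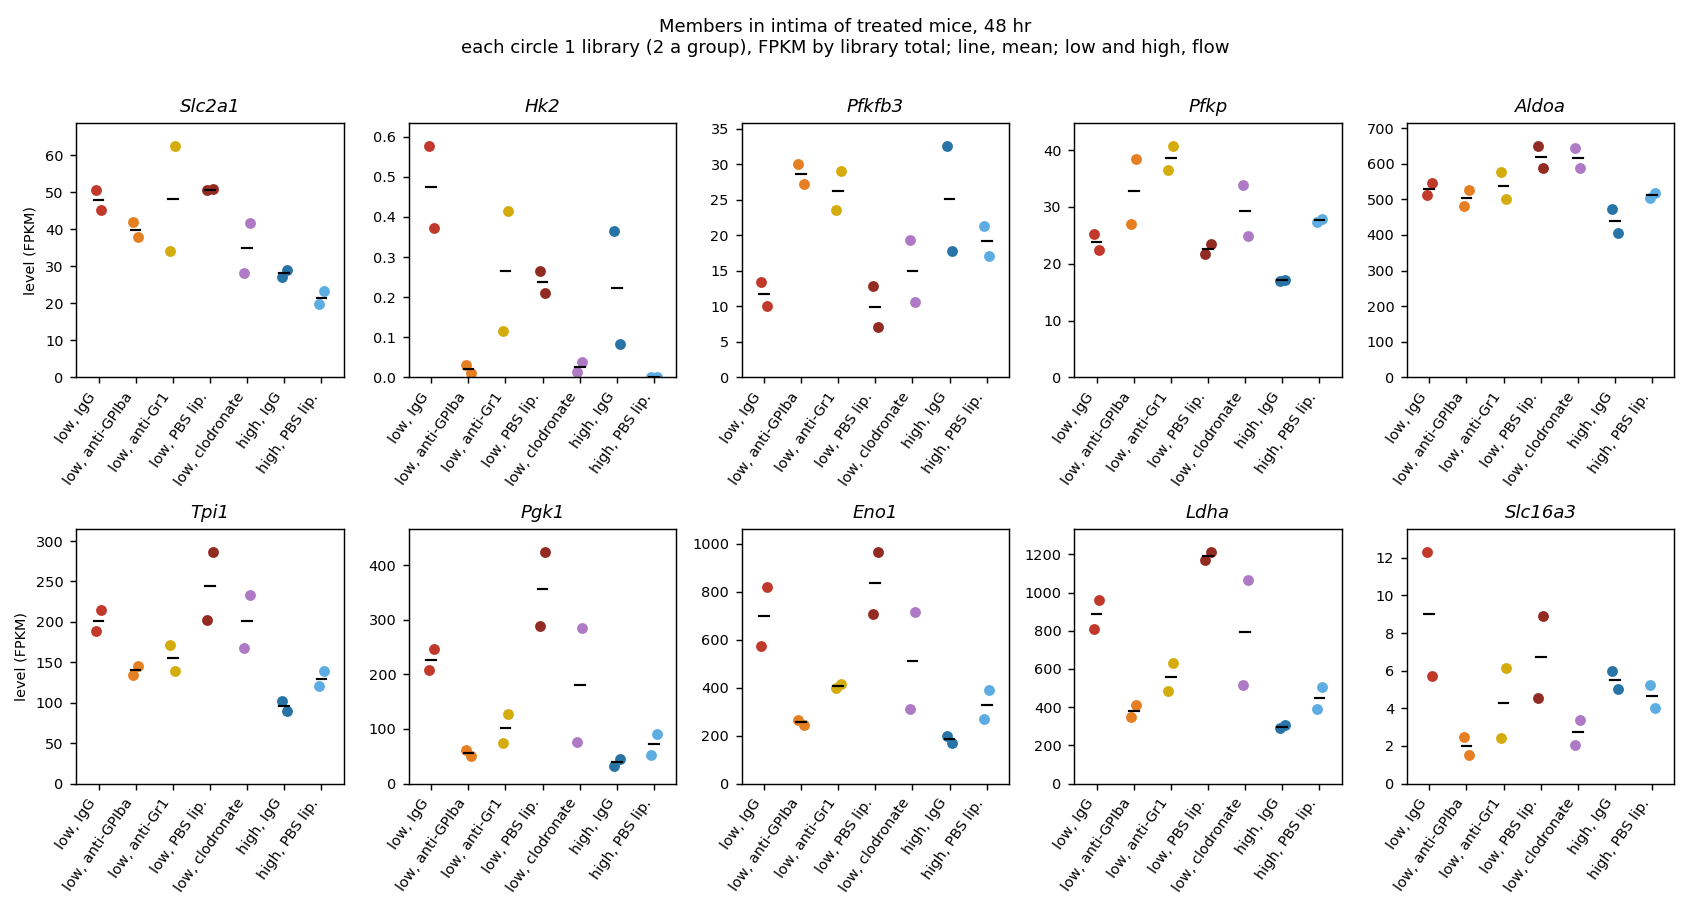
Level of each member in FPKM by library totals (vertical axes, from 0) in the 7 treated groups at 48 hr, where each circle is 1 of 2 libraries and each line their mean. Pgk1, Eno1 and Ldha after anti-GPIba (49.9 to 60.8, 244 to 267 and 350 to 414 FPKM) lie near the high-flow libraries, the clodronate libraries are far apart from each other, and Pfkfb3 is highest after anti-GPIba and anti-Gr1 and in 1 high-flow library.

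Whether the depletions differed from each other was tested directly. Between anti-GPIba and anti-Gr1, edgeR called 0 members and 0 genes (0.0%), with 1 member and 1409 genes at an unadjusted p under 0.05, and 0 members and 354 genes by DESeq2. Pgk1 had a log2 of −0.94 ± 0.52 (SE) and Slc16a3 of −1.16 ± 0.56 between them, Hk2 of −3.64 (adjusted p = 0.291), Eno1 of −0.72 and Ldha of −0.60, and the other 5 lay between −0.34 for Slc2a1 and 0.07 for Pfkfb3. The anti-GPIba effect minus the clodronate effect likewise gave 0 members and 0 genes (0.0%), with 0 members and 434 genes at an unadjusted p under 0.05, and 0 members and 0 genes by DESeq2. The difference was −1.01 ± 0.74 for Pgk1, −0.68 ± 0.51 for Eno1 and 0.79 ± 0.52 for Pfkfb3 (SE), and the other 7 lay between −1.18 for Hk2 and 0.34 for Slc2a1, so a difference was not detectable at these errors. In the pools of 100 bp reads, with 1 library per group and no test, clodronate gave 0 of 9 members at least 2-fold higher or lower with 1 FPKM or more in the higher library, where 4.47% of genes were higher and 6.82% lower. There Pgk1 had 246 FPKM after clodronate against 365, Eno1 488 against 679, Ldha 723 against 831 and Slc16a3 2.56 against 4.29.

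The ratio of Pgk1, Eno1 and Ldha to Aldoa and Tpi1 ordered the treated groups in the same way. It was 2.27 and 2.67 at low flow after IgG and 2.54 and 2.98 after PBS liposomes, while at high flow it was 0.912 and 1.05 after IgG and 1.14 and 1.5 after PBS liposomes. After anti-GPIba it was 1.1 and 1.05, after anti-Gr1 1.28 and 1.84, and after clodronate 1.12 and 2.52. The anti-GPIba libraries lay in the range of the high-flow libraries and under every other low-flow library of the treated set.

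At 7 days the comparison of genotypes was checked first on Rbfox2, which had 3.27, 5.73 and 2.74 FPKM in low-flow controls and 1.09, 0.169 and 0.622 in EC-KO, and 3.66 and 3.84 against 0.791 and 1.05 at high flow. All EC-KO libraries lay under all controls. The low-flow libraries were spread over 3 sequencing runs: library a of both genotypes in 1 run, control b and EC-KO c in another, and control c and EC-KO b in the third. All high-flow libraries shared the run of control b and EC-KO c. Between EC-KO and control at low flow, edgeR called 0 members and 0 of 13352 genes (0.0%), with 2 members and 880 genes at an unadjusted p under 0.05, and 0 members and 11 genes by DESeq2.

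Pgk1 had 89.1, 310 and 280 FPKM in control libraries a, b and c and 91.7, 94.3 and 148 in EC-KO. Ldha had 458, 939 and 771 FPKM against 435, 463 and 531, and Eno1 422, 719 and 604 against 425, 441 and 446. In each, control library a lay with the EC-KO libraries and control libraries b and c above them. The log2 values were −1.01 ± 0.41 for Pgk1, −0.58 ± 0.26 for Ldha and −0.39 ± 0.23 for Eno1 (SE, adjusted p = 0.692). Without control library a, these 3 passed, with adjusted p-values of 0.0118, 0.0182 and 0.0485, and so did 1476 of 13251 genes. With the libraries of column numbers 4 and 5 alone Pgk1 passed (adjusted p = 0.0383), and so did 374 of 13159 genes. Slc16a3 had 2.76, 10.3 and 3.80 FPKM against 1.99, 3.64 and 4.82, with overlap, and the median over the members was −0.32. The log2 values of Slc2a1, Tpi1, Aldoa and Pfkfb3 lay between −0.25 and 0.35, and Hk2 had −1.76 ± 2.00 (SE). Pfkp had 28.9, 24.4 and 25.1 FPKM in controls and 37.1, 31.9 and 33.1 in EC-KO, which did not overlap, at a log2 of 0.41 ± 0.18 (SE, adjusted p = 0.692). Macrophage markers held 0.0373% to 0.186% of counts in controls and 0.0979% to 0.187% in EC-KO, and cycling markers 0.0162% to 0.207% and 0.019% to 0.0623%.

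At high flow the genotypes gave 0 members with edgeR, 0 at an unadjusted p under 0.05 and 0 by DESeq2, where 0.00749% of genes passed. Pgk1 had 55.7 and 45.7 FPKM in controls and 62.1 and 47.2 in EC-KO, Eno1 257 and 223 against 358 and 263, and Ldha 337 and 319 against 429 and 337. Pfkp was higher in both EC-KO libraries, at 25.1 and 20.4 FPKM against 19.3 and 12.9, with a log2 of 0.46 ± 0.22 (SE, adjusted p = 1). Eno1 had a log2 of 0.32, and the other 8 lay between −0.18 for Slc2a1 and 0.17 for Aldoa.

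The flow response at 7 days was tested within each genotype, where low-flow and high-flow libraries partly share a run. In controls 1 member was higher at low flow, where 0.959% of genes were, and 0 were lower, where 1.44% were. Eno1 rose by 1.2 ± 0.26 (SE, adjusted p = 0.0479), and the call was lost without control low-flow library b or c or control high-flow library a or b, with adjusted p-values of up to 0.337 in fits where 3 to 52 genes passed. Pgk1 had a log2 of 2.09 ± 0.49 (adjusted p = 0.0521), Ldha of 1.06 ± 0.30 (adjusted p = 0.0741), Slc2a1 of 0.73 ± 0.31 (adjusted p = 0.185) and Tpi1 of 0.52 ± 0.20 (SE, adjusted p = 0.136), each without overlap, as was Pfkp at 0.62 (adjusted p = 0.104). Without control low-flow library a 5 members passed, namely Slc2a1, Tpi1, Pgk1, Eno1 and Ldha, with adjusted p-values of 0.000442 to 0.0437, and so did 2035 genes that were higher and 1862 that were lower of 13251. With DESeq2 5 members passed, where Pfkp stood in place of Slc2a1, of 2207 genes. With the replicate number as a block 4 passed, namely Eno1, Pgk1 (adjusted p = 0.00501), Ldha (0.00988) and Tpi1 (0.0444), of 2940 genes, against 320 without the block. Deviations of equal-numbered libraries from their group means had an r across genes of 0.052 and 0.211 between low-flow and high-flow controls. These values do not establish a pairing. Pfkfb3 had 34.4, 8.88 and 14.4 FPKM at low flow against 15.4 and 31.1, with overlap. Aldoa had a log2 of −0.19, Slc16a3 of 0.38 and Hk2 of 1.40. The median over the members was 0.67 against 0.04 over all genes.

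In EC-KO libraries edgeR called 0 members higher or lower with flow, where 0.352% of genes were higher and 0.741% lower, with 2 members at an unadjusted p under 0.05 and 0 by DESeq2. Slc2a1 had 33.7, 30.7 and 28.0 FPKM at low flow and 19.6 and 15.6 at high flow, without overlap (log2 of 0.80 ± 0.32, SE, adjusted p = 0.26). Pfkp (0.57), Tpi1 (0.26), Pgk1, Eno1 (0.49) and Ldha (0.31) did not overlap either, with Ldha at 435, 463 and 531 FPKM against 429 and 337. How many of all genes separate in this way was not counted, so no result about the members is read from it. Slc16a3 (−0.26), Aldoa (−0.18), Hk2 (−0.37) and Pfkfb3 (0.07) lay near or under 0. Pgk1 had a log2 of 1.01 ± 0.47 (SE, adjusted p = 0.329) and passed with the replicate number as a block (log2 of 1.39, adjusted p = 0.0438), as did 1317 genes against 146 without the block. Between EC-KO libraries of equal number at low and high flow, the r of their deviations was −0.065 and −0.029. The flow effect in EC-KO minus that in controls gave 0 members and 0 genes (0.0%) with edgeR, with 0 members and 538 genes at an unadjusted p under 0.05, and 0 members and 21 genes by DESeq2. The difference was −1.07 ± 0.64 for Pgk1, −0.71 ± 0.36 for Eno1, −0.75 ± 0.41 for Ldha and 0.07 ± 0.44 for Slc2a1 (SE, adjusted p of 0.986 or more), and the other 6 lay between −1.76 for Hk2 and 0.45 for Pfkfb3.

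**Figure D4:**
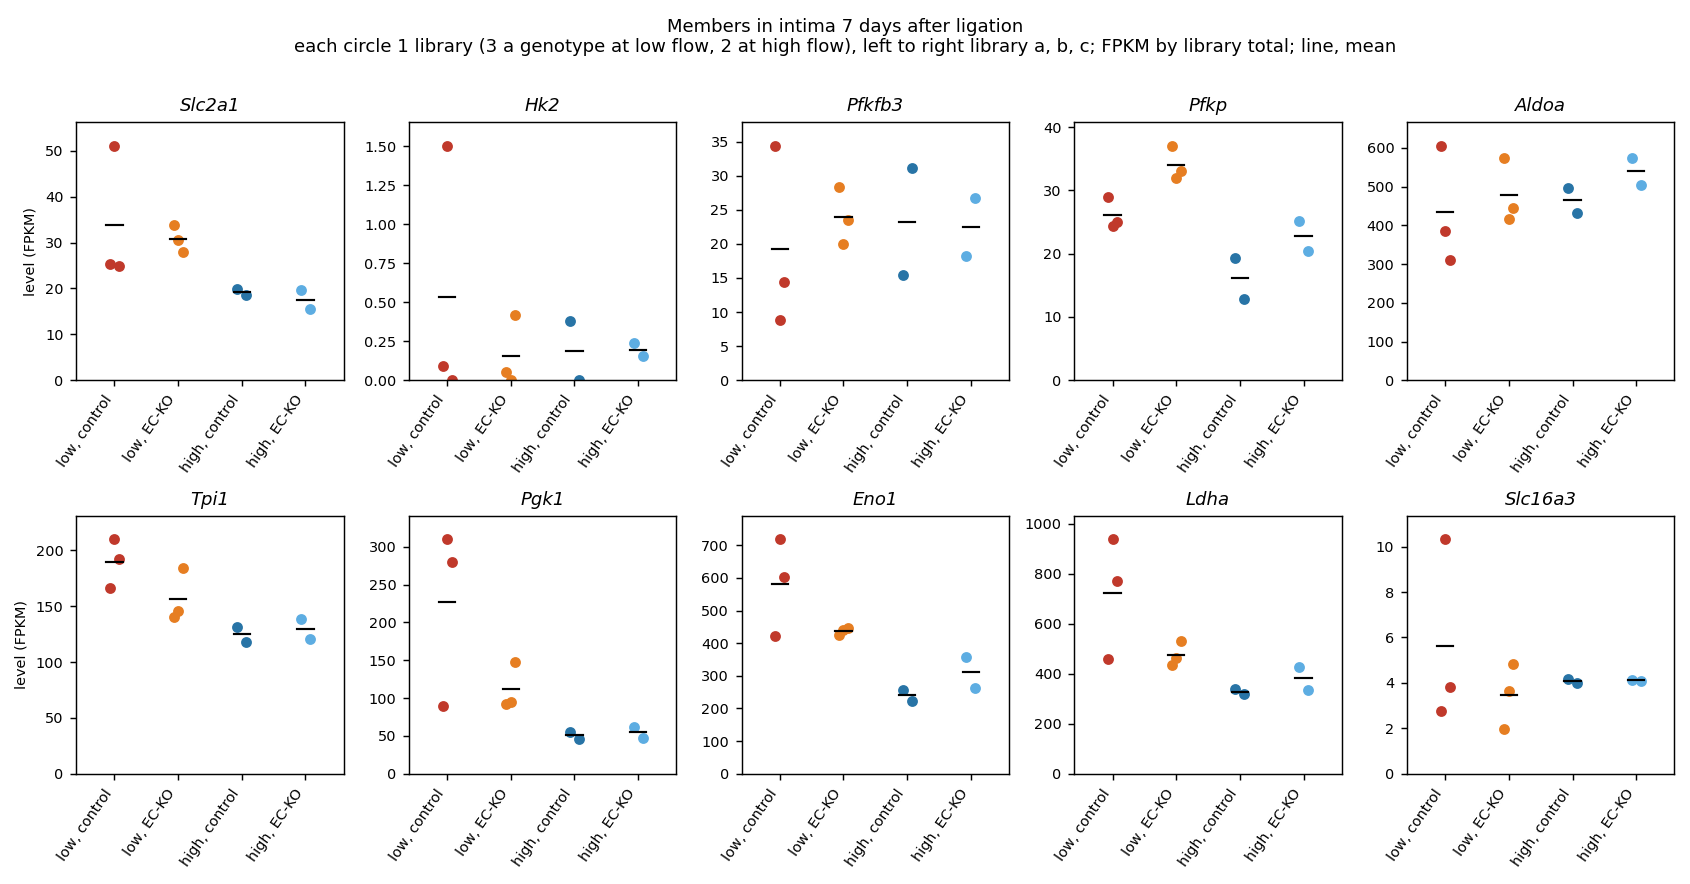
Level of each member in FPKM by library totals (vertical axes, from 0) at 7 days in controls and Rbfox2 EC-KO at low and high flow, where circles are libraries a, b and c from left to right and lines are means. Control library a at low flow sits with the EC-KO libraries for Pgk1, Eno1 and Ldha (89.1, 422 and 458 FPKM), and Pfkp is higher in EC-KO at either flow without passing the test.

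The cultures had 1 library each, so their ratios have no replicate check and no test, and a member was counted when it differed at least 2-fold with 1 FPKM or more in the higher library. The endothelial line showed little of its labelled type, since the 11 endothelial markers, all with counts, held 0.0295% to 0.0372% of counts, and macrophage markers held 0.00205% in the untreated line, where 8 of 14 were at 0, against 0.0394% with platelets and macrophages and 0.0306% with all 3, where 0 of 14 were at 0. RNA of the added cells and RNA of the line cannot be told apart. With plasma alone 2 of 9 members were at least 2-fold higher and 0 lower, where 4.16% of genes were higher and 6.57% lower: Slc16a3 had 28.6 FPKM against 12.6, and Pfkfb3 2.61 against 1.28. With platelets and macrophages 1 of 9 was higher and 0 lower, where 3.83% and 5.65% of genes were: Slc16a3, with 33.0 FPKM.

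With plasma, platelets and macrophages together, 9 of the 10 members were at least 2-fold higher and 0 lower, where 7.57% of genes were higher and 11.8% lower. Slc16a3 had 126 FPKM, 9.96 times the untreated culture. Pfkfb3 had 6.47 FPKM (5.04 times), Pgk1 853 against 210 (4.06 times), Slc2a1 75.5 against 19.2 (3.94 times), Ldha 1902 against 509 (3.74 times) and Eno1 1680 against 511 (3.29 times). Tpi1 was 2.83, Hk2 2.79 and Aldoa 2.66 times higher, and Pfkp had 20.8 FPKM against 14, the 1 member under 2-fold. The median ratio was 3.51 over the members and 0.928 over all genes. Pfkfb3 and Pgk1 lay on the same side here.

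**Figure D5:**
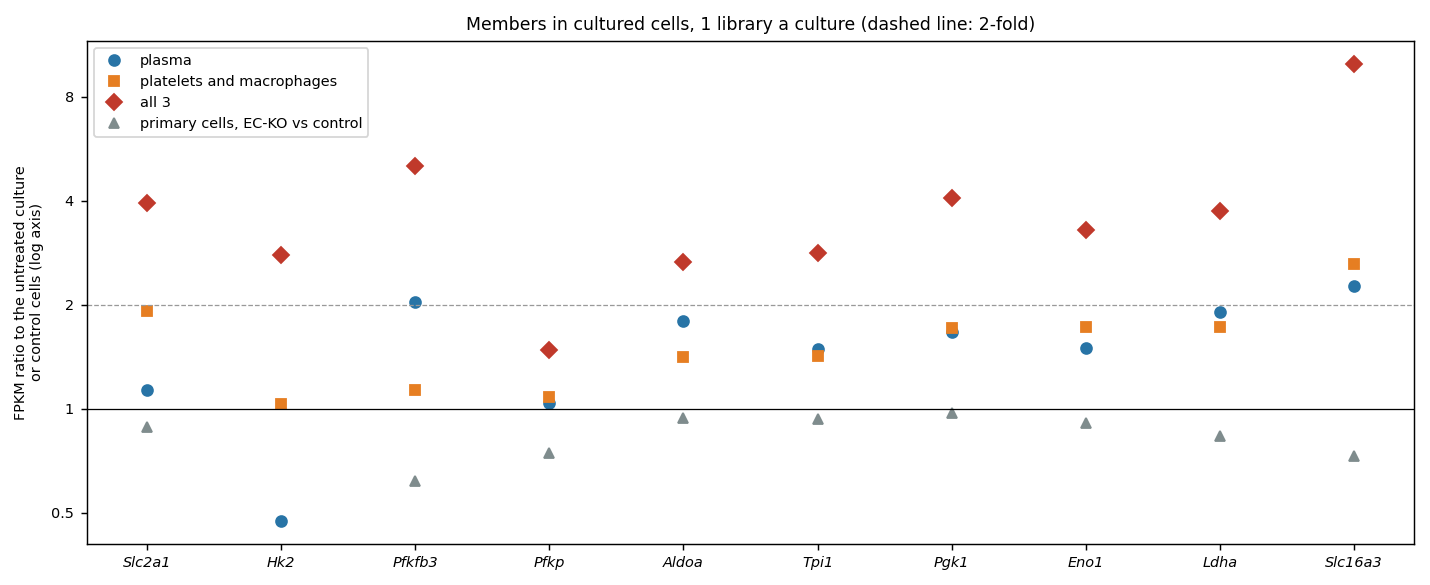
FPKM of each member in treated cultures of the endothelial line as a ratio to the untreated culture, and in primary Rbfox2 EC-KO cells as a ratio to control cells (vertical log axis, solid line at 1, dashed line at 2-fold, 1 library per culture; Hk2 in EC-KO cells is listed at 0 and not drawn). All members but Pfkp (1.48) lie above 2-fold with all 3 additions, led by Slc16a3 at 9.96, while the primary cells lie between 0.617 and 0.971.

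In primary Rbfox2 EC-KO cells, where Rbfox2 had 0.675 FPKM against 9.33 in control cells, 0 of 9 members differed at least 2-fold, where 4.43% of genes were higher and 3.75% lower. Their ratios ran from 0.617 for Pfkfb3 to 0.971 for Pgk1, and the median was 0.885. The primary cells held much of the pathway: Ldha had 994 FPKM by library totals in eGFP-sorted cells, 1440 in control cells and 1199 in EC-KO cells, Eno1 1300, 1491 and 1359, and Slc16a3 7.26, 34.3 and 25.1. By TMM-adjusted totals, Ldha had 1447, 1480 and 1210, Eno1 1893, 1532 and 1372, and Slc16a3 10.6, 35.3 and 25.4. The eGFP-sorted cells were cultured for 5 days and read at 100 bp, the others for 7 days and at 150 bp. In these 3 cultures macrophage markers held 0.0022%, 0.032% and 0.000201% of counts, and 10, 4 and 10 of the 14 markers were at 0. Pfkfb3 had 2.5, 8.69 and 5.36 FPKM there.

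Set in order by mean FPKM on library totals over the 14 artery groups with replicates, Ldha ran from 298 at high flow after IgG and 328 in high-flow controls at 7 days, through 382 after anti-GPIba, to 887 after IgG and 1191 after PBS liposomes at low flow. Pgk1 kept a similar order, from 39.2 at high flow after IgG over 55.3 after anti-GPIba to 356 at low flow after PBS liposomes. Neighbours in the order overlapped in many cases, such as anti-GPIba (350 and 414) and high-flow EC-KO (337 and 429) for Ldha. Pfkfb3 was ordered differently, with its lowest mean of 4.36 in untreated low-flow pools and its highest of 28.7 after anti-GPIba, and these levels cross sequencing runs and read lengths. The top of the order depends on the scale. By TMM-adjusted totals, untreated low-flow pools had the highest means, 1338 for Ldha and 451 for Pgk1, against 1274 and 381 at low flow after PBS liposomes.

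Over the means of these 14 groups, each member was correlated with the mean of the other 9 as a description. The coefficient was 0.92 for Ldha, 0.89 for Eno1, 0.85 for Pgk1, 0.70 for Slc2a1 and 0.66 for Tpi1, then 0.31 for Slc16a3, 0.27 for Aldoa, 0.26 for Hk2 and 0.13 for Pfkp, and −0.78 for Pfkfb3. The groups share runs and controls, so no p is given. Outside the members, the genes most like their mean over the 14 groups were Slc39a13, a zinc transporter (0.984), Tubb6, a tubulin (0.969), Litaf (0.969), Sdcbp2 (0.965) and Pisd, a mitochondrial phosphatidylserine decarboxylase (0.962). Over the 33 single libraries the nearest 5 were others, led by Eif5a (0.912), so the ranking was not stable to that choice.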

How the data were processed

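Libraries were made with a low-input kit for amplified RNA. Per the study's methods and processing notes the authors mapped reads to mm9, with STAR 2.5.1b named for the 150 bp reads, and estimated expression from read pairs with RSEM 1.2.15. They deposited expected counts per gene, not normalized, with 5.2% to 19.32% of the values of a library not whole, and 1 effective length per gene. Of 21675 entries, 1 without a usable name was left out. The 42 count columns matched to samples were used, and 162 other columns of values were not, among them second runs of the untreated pools. Pools and libraries are called a, b and c in the order of the letters or numbers of the table, which are not tied to the replicate numbers of the labels.

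FPKM was computed from each count, the effective length and the library total, and again with TMM-adjusted totals. Expected counts were rounded and tested with edgeR 4.0.16 in R 4.3.3 (default low-count filter, TMM, quasi-likelihood test, Benjamini-Hochberg over all genes, threshold 0.05). Untreated groups were fitted 2 at a time, the 7 treated groups together and the 4 groups of 7 days together, and DESeq2 1.42.0 was an alternative. The code was checked on simulated counts. Python 3.11.15, pandas 2.3.3, numpy 2.4.6, scipy 1.17.1, matplotlib 3.10.9 and blastn 2.17.0 were used. The paper took high-flow RNA from the opposite arteries of ligated mice, so low-flow and high-flow libraries may share mice. Tests without a block treat them as independent, and nothing says that all libraries came from separate mice, so p-values measure the spread between libraries. Intervals and floors cover counting error only.

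The members and lists were chosen with earlier results of these data known. The 10 members are described in every comparison, those not named singly by their range; of the other lists, isoforms of a member's step and the largest called rise and fall could be named, and Pkm2, Pgam1 and Pdk2 after anti-GPIba were added after their values were seen. The nearest genes were the 5 with the highest correlation over group means. At 7 days, low-flow libraries of the same number deviated together between EC-KO and control (3 pairs, r of 0.189 to 0.507). Library a of both genotypes shares a sequencing run and pairs of numbers 4 and 5 cross runs, so this does not establish a pairing. The blocked fit changed no member call between EC-KO and control.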

Additional observations from a re-analysis of the deposited data

Results flagged for a closer look

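Pfkp, the platelet-type phosphofructokinase, moved in opposite directions with flow in the 2 control treatments. Under IgG it had 25.2 and 22.5 FPKM at low flow against 17.0 and 17.2 at high flow (log2 of 0.40), and under PBS liposomes 21.8 and 23.5 against 27.3 and 27.9 (log2 of −0.18), with no overlap in either. At 7 days it lay higher at low flow in controls (0.62) and EC-KO (0.57), again opposite to the value of −0.18 under PBS liposomes. None of these changes of Pfkp passed the threshold with edgeR, DESeq2 called that in 7 day controls (adjusted p = 0.0309), and the difference between them was not tested.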

How the results depend on the processing

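Of 1978 recomputed member changes, 1755 kept direction and side of the threshold, 93 lost and 37 gained a call, 2 reversed and 91 changed sign without a call in either; the reversals are Tpi1 with library totals (−0.05 against high flow, −0.15 against sham). Counts of members called that moved by over 1.5 times, or from or to 0, were these. With low-flow pool c alone, added after the data were seen, 4 of 7 passed against high flow and 0 against sham, where library totals left 4. For low-flow anti-GPIba against high-flow IgG, DESeq2 and the 2 groups alone each gave 2 instead of 1. For flow in 7 day controls, DESeq2 gave 5, no filter 2, the replicate block 4, the 2 groups alone 0 and the libraries numbered 4 and 5, added later, 4 instead of 1. Those libraries gave 1 instead of 0 for EC-KO against control at low flow and for flow in EC-KO, where the replicate block also gave 1. The platelet and macrophage culture had 2 instead of 1 with TMM. The cause was not tested. Where no count over all genes of the same fit is given, a move is not read as particular to the members. Counts over all genes moved too: DESeq2 gave 3683 against 2216 for anti-GPIba, 462 against 16 for clodronate, 2173 against 1032 for anti-GPIba against high-flow IgG, and 2207 against 320 and 948 against 146 for flow at 7 days in controls and EC-KO. Leaving out 1 library gave 4 to 8 against high flow, 2 to 7 against sham, 0 for anti-GPIba against IgG, 0 to 3 for clodronate, 3 to 5 for flow under IgG, 0 to 6 under PBS liposomes, 0 for anti-GPIba against high-flow IgG, 0 to 3 for EC-KO at low flow and 0 to 5 for flow in 7 day controls. The block also gave 7 instead of 6 for flow under PBS liposomes (Pfkfb3 added), and beyond these 3 comparisons it changed no count of members. In the treated set equal numbers went together in some pairs of groups and not in others (21 pairs, r of −0.172 to 0.561, median 0.019; 0.486 for PBS liposomes with clodronate at low flow), and with 2 libraries per group this does not establish a pairing. No paired analysis was possible for the untreated pools because their columns carry no numbers. With 3 pools or fewer per group, and 0 to 3 counts of Hk2 in several libraries, precision is limited.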
